A study of Mus musculus with 16 samples.

Results

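The lipid droplet genes followed here in mouse liver RNA number 10. They are 4 perilipins that coat droplets (Plin2, Plin3, Plin4 and Plin5), the 3 Cide genes that help droplets grow (Cidea, Cideb and Cidec), the triglyceride lipase Pnpla2 and its inhibitors G0s2 and Hilpda. They were taken by symbol, and all 10 matched among the 78317 genes listed and were among the 14781 genes tested. The livers came from wild type C57BL/6J mice, an inbred laboratory strain, in 4 groups of 4. Females and males each ate either a normal chow, in which fat gave 4.5% of the calories, or a high fat diet, in which it gave 60%. Feeding lasted 10 weeks from an age of 6 weeks at arrival, and poly(A) RNA of powdered whole liver was sequenced. The feeds were made by different suppliers, and components other than fat may differ between them. The labels do not say that each replicate was a separate animal, so p-values measure the spread between these samples.

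Hepatocytes keep surplus fatty acids as triglyceride in droplets, whose surface proteins decide how readily lipases reach the core. Perilipins shield the surface, Cide proteins move lipid from smaller into larger droplets, and Pnpla2 (adipose triglyceride lipase, ATGL) releases the first fatty acid unless G0s2 or Hilpda holds it back. Several of these genes are known targets of the PPAR nuclear receptors, which bind fatty acids and recognise the DNA core AGGTCA.

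The libraries held between 22228115 and 41420589 counts in all. Levels in a library are in CPM (counts over the library size, scaled by edgeR's trimmed mean of M values), and levels of different genes are compared in TPM, which divides by transcript length. In whole liver, fewer cells of a type and less RNA per cell cannot be told apart. A pair of libraries stood apart in their likeness. Male high fat replicates 2 and 3 differed by a chi-square statistic per gene of 3.9, against at least 20.8 for every other pair within a group and 1 for sampling noise alone. They were counted as 2 samples, as labelled, and male results are also given with these libraries averaged into 1. Male high fat replicate 1 stood far from both (305 and 308) and replicate 4 less far (158 and 160), against at most 96.7 for any pair in the other groups. Between replicates 1 and 4 the statistic was 55.6. Plin4, Cidea and Cidec were lowest of their group in replicate 1, and the part of this spread in the male results was not tested. The hepatocyte marker sum (6 genes, Alb among them) was between 65900 and 121000 CPM in every library, and that of 8 adipocyte genes between 14.5 and 33.3 CPM.

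The 250 bases before the RefSeq start sites of Plin2, Plin4 and Cidec are shown because these genes were among the 6 that rose in the high fat males. They come from RefSeq on GRCm38.p6, all on the minus strand, and are written 5′ to 3′. Capitals mark AGGTCA (read as TGACCT on the other strand) and the CCAAT box (read as ATTGG on the other strand). The Plin2 window is chr4:86670060-86670309, the Plin4 window chr17:56109783-56110032, the first Cidec window chr6:113435761-113436010 and the second chr6:113434765-113435014.
Plin2: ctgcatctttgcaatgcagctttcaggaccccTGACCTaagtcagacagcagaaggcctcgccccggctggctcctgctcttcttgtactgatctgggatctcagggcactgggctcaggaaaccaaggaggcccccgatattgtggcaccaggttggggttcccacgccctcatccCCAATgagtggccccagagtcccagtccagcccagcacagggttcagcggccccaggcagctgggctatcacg
Plin4: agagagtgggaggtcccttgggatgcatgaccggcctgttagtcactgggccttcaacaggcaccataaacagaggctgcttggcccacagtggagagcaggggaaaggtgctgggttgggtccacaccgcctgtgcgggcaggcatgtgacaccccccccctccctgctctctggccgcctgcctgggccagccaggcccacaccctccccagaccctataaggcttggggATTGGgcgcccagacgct
Cidec, first start: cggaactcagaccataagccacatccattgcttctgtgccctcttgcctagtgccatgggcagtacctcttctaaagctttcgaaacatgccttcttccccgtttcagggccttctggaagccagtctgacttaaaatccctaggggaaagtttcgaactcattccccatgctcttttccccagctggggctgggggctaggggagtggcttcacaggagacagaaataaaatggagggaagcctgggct
Cidec, second start: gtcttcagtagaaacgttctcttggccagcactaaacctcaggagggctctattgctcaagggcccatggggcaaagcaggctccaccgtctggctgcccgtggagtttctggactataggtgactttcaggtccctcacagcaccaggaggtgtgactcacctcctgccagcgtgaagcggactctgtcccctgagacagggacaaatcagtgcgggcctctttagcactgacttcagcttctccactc

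Windows were found for 9 of the 10 genes. AGGTCA was in the windows of Plin2 (bases -218 to -213 from the start) and Plin5, and in 14% of 32851 mouse windows of the same length, counting both strands. A direct repeat of AGGTCA with a spacer of 1 base (DR1) was in none of the 9 genes and in 0.0335% of all windows. CCAAT was in 4 of the 12 windows of these genes, against 33.8% of all windows. They were the windows of Plin2, Plin3 and Plin4 and the first of Plin5, whose second start lacked it. In Plin4 it stood at bases -18 to -14. The hypoxia core ACGTG was in 1 of the 9 genes, Hilpda, and in 16.6% of windows, the TATAAA box in Cideb alone (12.4% of windows) and the E-box CACGTG, which contains ACGTG, in none (6.02% of windows). A match describes the letters and is not a measured binding site.

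Plin2 and Cideb were by far the most abundant coat and Cide transcripts per length. Group means of Plin2 were between 252 and 465 TPM and those of Cideb between 191 and 269 TPM, and their libraries overlapped in every group but the males on the high fat diet, where each Plin2 value was higher. G0s2 followed with group means of 23 to 112 TPM and Pnpla2 with 24.4 to 38.5 TPM. In normal diet males alone the mean of Pnpla2 (38.5 TPM) was above that of G0s2 (23 TPM). Plin5 (14 to 24.2 TPM), Plin3 (6.12 to 10.6 TPM) and Cidec (3.47 to 26.2 TPM) came next, except in high fat males, where the mean of Cidec (26.2 TPM) was above those of Pnpla2 (24.4 TPM) and Plin5 (16.5 TPM) and its libraries overlapped those of Pnpla2. Plin4 (0.682 to 7.06 TPM), Hilpda (1.71 to 2.38 TPM) and Cidea (0.065 to 4.68 TPM) were scarce.

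**Figure D1:**
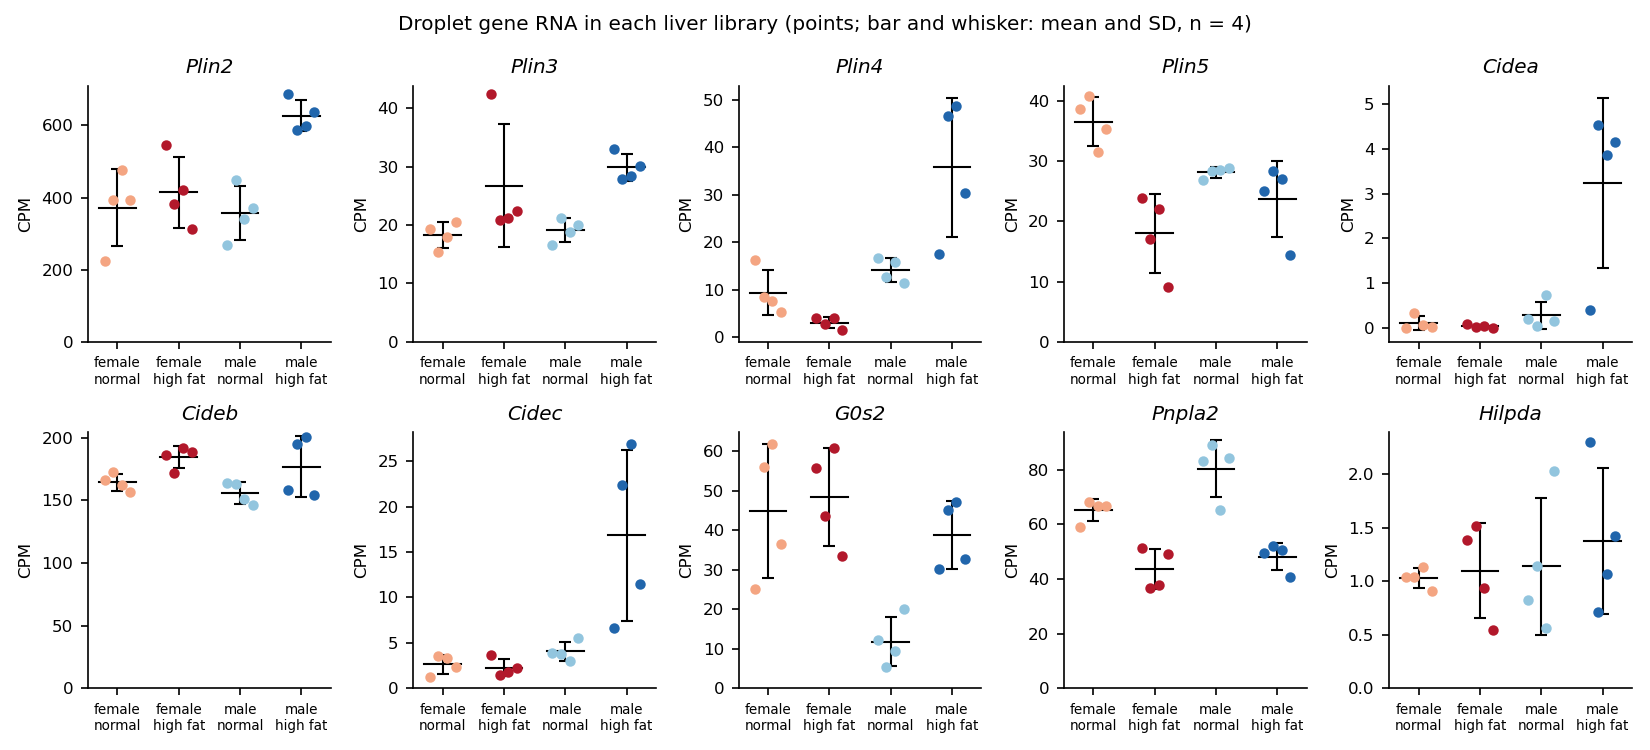
Each panel plots 1 gene in TMM-scaled CPM (linear axis) for the 16 liver libraries, with a bar at the mean and whiskers of 1 SD (n = 4) for each sex and diet. Cidec and Plin4 were highest in males on the high fat diet, with means of 16.8 and 35.8 CPM, and G0s2 was lowest in males on the normal diet (mean 11.8 CPM).

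The first question was what the high fat diet did to these genes in each sex. In males 7 of the 10 were called (edgeR quasi-likelihood test, adjusted p under 0.05), against 11.4% of all genes tested. Of these, 6 rose (Plin2, Plin3, Plin4, Cidea, Cidec and G0s2; 6.03% of all genes rose) and 1 fell (Pnpla2; 5.36% fell). In females 3 were called, against 11.5% of all genes, and all 3 fell (Plin4, Plin5 and Pnpla2; 5.76% of all genes fell and 5.74% rose). The libraries of the diets did not overlap for 6 of the 10 genes in males (18.5% of all genes) and for 4 in females (18.3%). The median log2 fold change of the 10 genes was 0.727 in males, where that of all genes was 0.011, and -0.048 in females, where it was 0.002. With male high fat replicates 2 and 3 averaged, 5 genes were called in males, and Plin3 and Plin4 no longer passed.

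**Figure D2:**
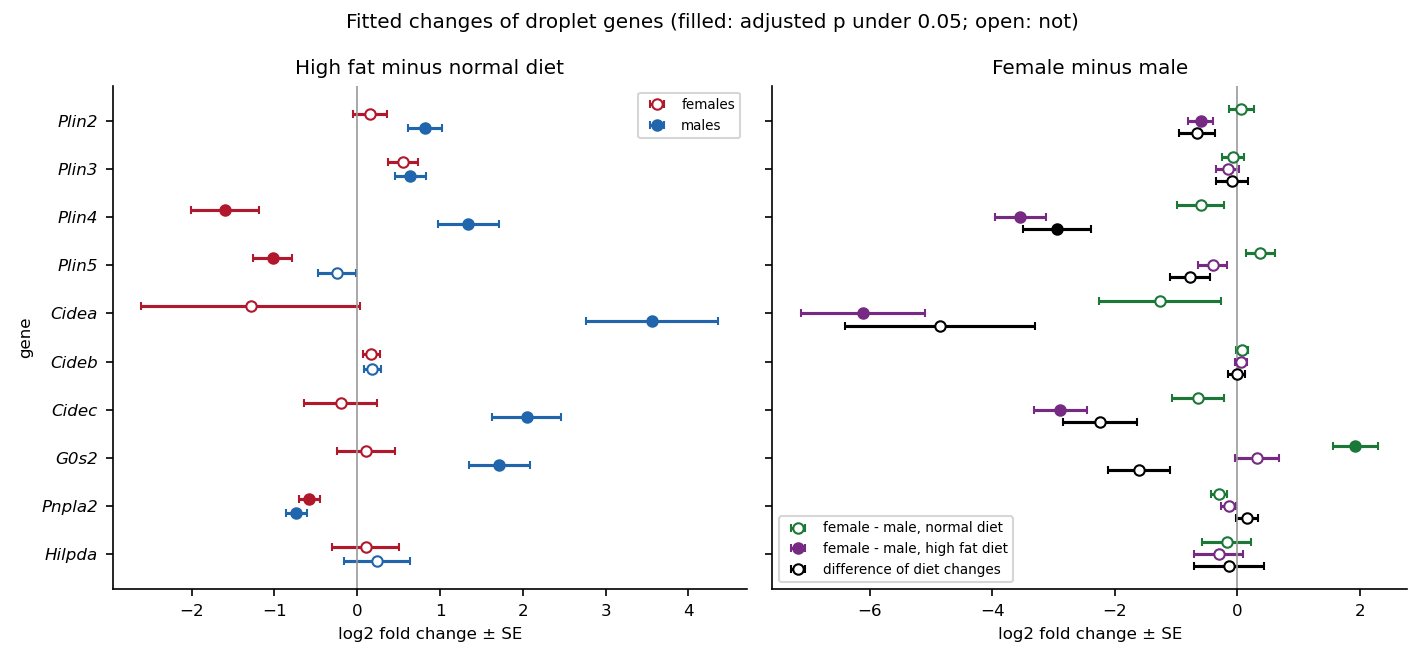
Points are edgeR log2 fold changes with whiskers of 1 SE, filled where the adjusted p was under 0.05. The left panel gives high fat minus normal diet in each sex, and the right panel gives female minus male on each diet and the female diet change minus the male one, where Plin4 alone passed (log2 difference -2.94).

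Among the perilipins, Plin2 (ENSMUSG00000028494.13), the main droplet coat of hepatocytes, held most of the transcript. In males it had 267, 449, 341 and 370 CPM on the normal diet and 686, 588, 599 and 636 CPM on the high fat diet. In females it had 225, 394, 477 and 393 CPM on the normal diet and 545, 381, 420 and 312 CPM on the high fat diet. Every high fat male lay above every normal diet male, while the female diets overlapped. The male rise was 1.76-fold (log2 0.81 ± 0.21 SE, edgeR adjusted p = 0.0161), and the female log2 fold change was 0.15 ± 0.20 (adjusted p = 0.666). Without male normal replicate 1, the lowest of its group, the male change no longer passed (log2 0.69, adjusted p = 0.0566), and with high fat replicates 2 and 3 averaged it did (adjusted p = 0.0311). The female change minus the male one was -0.66 ± 0.29 (adjusted p = 0.341), so the difference of diet changes did not pass for Plin2.

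Plin3 (ENSMUSG00000024197.11) is a mainly cytosolic perilipin that moves onto new droplets. The male libraries had 16.6, 21.3, 18.8 and 20.0 CPM on the normal diet and 33.1, 27.9, 28.4 and 30.2 CPM on the high fat diet, with no overlap. The female libraries had 19.4, 15.4, 17.9 and 20.5 CPM on the normal diet and 42.5, 20.8, 21.2 and 22.5 CPM on the high fat diet, again with no overlap, although 3 of the 4 high fat libraries lay just above the normal diet ones. The male rise was 1.56-fold (log2 0.64 ± 0.18, edgeR adjusted p = 0.032). It did not pass without male normal replicate 1, 3 or 4, without any 1 of the male high fat replicates (adjusted p from 0.0514 to 0.0972), or with replicates 2 and 3 averaged (adjusted p = 0.0583). The female log2 fold change of 0.55 ± 0.18 did not pass in edgeR (adjusted p = 0.0614) and passed in DESeq2 (adjusted p = 0.0371). It rests in part on female high fat replicate 1, without which it was 0.23 (adjusted p = 0.199) and Plin3 passed between the sexes on the high fat diet (female minus male log2 -0.48 ± 0.11, adjusted p = 0.0098). With all libraries the changes of both sexes differed by -0.09 ± 0.26 (adjusted p = 0.922).

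Plin4 (ENSMUSG00000002831.16), a perilipin of adipocytes and muscle that coats small droplets with a long repeated helix, moved in opposite directions in the sexes. In males it had 16.6, 12.7, 15.8 and 11.5 CPM on the normal diet and 17.5, 46.5, 48.7 and 30.4 CPM on the high fat diet. In females it had 16.2, 8.43, 7.54 and 5.24 CPM on the normal diet and 3.96, 2.75, 4.04 and 1.49 CPM on the high fat diet. Neither sex had overlapping diets, but male high fat replicate 1 was only just above the normal diet males. The rise in males was 2.54-fold (log2 1.34 ± 0.37, edgeR adjusted p = 0.0323) and the fall in females 3.03-fold (log2 -1.60 ± 0.41, adjusted p = 0.0222). The difference of these changes, female minus male, was -2.94 ± 0.55 on the log2 scale and passed (adjusted p = 0.0251).

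These 3 calls on Plin4 kept their direction in every alternative fit but lay near the threshold in edgeR, while in DESeq2 the adjusted p was 0.00167 in males, 0.000141 in females and 1.29e-06 for the difference. The male rise did not pass without any 1 of the male normal replicates or without male high fat replicate 2, 3 or 4 (adjusted p from 0.0519 to 0.0896), and with replicates 2 and 3 averaged its adjusted p was 0.0899. Without the filter on low counts none of the 3 passed (adjusted p = 0.0889 in males, 0.0601 in females and 0.0594 for the difference). The female fall did not pass without female normal replicate 1 or female high fat replicate 2 or 4 (adjusted p from 0.0516 to 0.0665). It also did not pass with limma on log2(TPM + 1) (-0.68, adjusted p = 0.059), where the median of all genes moved by 0.149. The difference between the sexes did not pass without female normal replicate 2, female high fat replicate 1 or 2, male normal replicate 2 or 4, or male high fat replicate 2 or 3 (adjusted p from 0.0504 to 0.0626), or with the latter pair averaged (log2 -2.76, adjusted p = 0.0595). Plin4 shares 17 exon bases with Hdgfl2 on the other strand in GENCODE M21, and whether the counting used strand is not given in the sources used here.

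Plin5 (ENSMUSG00000011305.12) tethers droplets to mitochondria in tissues that burn fat. The female values were 38.6, 40.9, 31.5 and 35.3 CPM on the normal diet and 23.9, 17, 22 and 9.14 CPM on the high fat diet. The male values were 26.8, 28.4, 28.6 and 28.9 CPM on the normal diet and 25, 28.4, 27.1 and 14.4 CPM on the high fat diet. The female diets did not overlap, and the male diets overlapped, with high fat replicate 4 the lowest. The female fall was 2.03-fold (log2 -1.02 ± 0.24, edgeR adjusted p = 0.0114), and the male log2 fold change was -0.25 ± 0.23 (adjusted p = 0.536). The female change minus the male one was -0.77 ± 0.33 (adjusted p = 0.33).

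The share of Plin2 among perilipin transcripts was higher on average on the high fat diet in both sexes. Plin2 took 88.3% ± 4.48 (SD, n = 4) of summed perilipin TPM in females on the normal diet and 93.3% ± 0.608 on the high fat diet, and 89.8% ± 1.71 and 93.1% ± 1.41 in males. The share of Plin5 went from 8.81% ± 3.17 to 3.73% ± 0.822 in females and from 6.86% ± 1.16 to 3.34% ± 0.968 in males. These shares are descriptions without a test. In CPM, which is not divided by length, the Plin2 shares were lower (84.2% and 89.8% in females, 85% and 87.5% in males), with the same order of the diets.

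Of the Cide genes, Cideb (ENSMUSG00000022219.11) is the liver member, known for loading lipid onto secreted lipoproteins. Females had between 157 and 173 CPM of it on the normal diet and between 172 and 192 CPM on the high fat diet. The male ranges were 146 to 164 CPM and 154 to 201 CPM. The diets overlapped in both sexes, and the log2 fold changes were 0.17 ± 0.10 in females (edgeR adjusted p = 0.29) and 0.18 ± 0.10 in males (adjusted p = 0.253). In females limma on log2(TPM + 1) gave 0.41 ± 0.10 (adjusted p = 0.00883), on a scale where the median of all genes moved by 0.149. Cideb shares 1136 exon bases with Nop9 on the other strand in GENCODE M21, so without strand the reads of both genes there cannot be told apart.

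Cidec (ENSMUSG00000030278.12), also known as Fsp27, builds the large droplets of fat cells. In males it had 3.91, 3.8, 3.02 and 5.49 CPM on the normal diet and 6.61, 22.4, 26.9 and 11.5 CPM on the high fat diet. In females it had 1.26, 3.59, 3.33 and 2.28 CPM on the normal diet and 3.66, 1.46, 1.76 and 2.20 CPM on the high fat diet. All high fat males exceeded all normal diet males, and the females did not separate by diet. The male rise was 4.13-fold (log2 2.05 ± 0.42, edgeR adjusted p = 0.0059), and it passed in all 24 alternative fits, with log2 1.80 and adjusted p = 0.0183 when replicates 2 and 3 were averaged. The female log2 fold change was -0.20 ± 0.44 (adjusted p = 0.81). The female change minus the male one was -2.25 ± 0.60 and did not pass in edgeR (adjusted p = 0.113), while it passed in DESeq2 (adjusted p = 0.00517) and in edgeR without male high fat replicate 1 (adjusted p = 0.0335).

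The effective length that RSEM gave Cidec, read from the ratio of count to TPM, also differed between libraries. Taking the longest as 100%, it was 79.6%, 77.9%, 78.1% and 88.8% in the high fat males, 91.8%, 92.4%, 90.6% and 77.3% in the normal diet males, and 81.1% to 100% in females. Cidec has more than 1 annotated transcript and the 2 start sites printed above. Lengths were also set against each gene's own mean in normal diet females, in libraries with at least 100 counts. On that scale Plin2, Plin3, Plin5 and Pnpla2 stayed between 98.94% and 100.3%. G0s2 lay between 98.82% and 102.1%, Plin4 between 97.58% and 102.5%, and Cidec between 83.25% and 107.7%. The shorter lengths were in high fat males 1 to 3 but also in normal diet male 4, and several of the other libraries had under 100 counts of Cidec.

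Cidea (ENSMUSG00000024526.10), a Cide gene of brown fat, was nearly absent outside males on the high fat diet. It had 11, 133, 112 and 94 counts in those males and 5, 2, 17 and 6 counts in normal diet males. Females had 0, 11, 2 and 1 counts on the normal diet and 3, 1, 1 and 0 counts on the high fat diet. In CPM male high fat replicate 1 had 0.409 and the other 3 between 3.85 and 4.52, so the male diets overlapped through that library. The rise in males passed (log2 3.56 ± 0.80, edgeR adjusted p = 0.00936, and 0.0241 with replicates 2 and 3 averaged), with the size of a fold from so few counts depending on the fit's handling of low counts. The female change did not pass (14 and 5 counts in all, adjusted p = 0.569), nor did the female change minus the male one (adjusted p = 0.186).

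Together Cidec and Cidea took more of the Cide transcripts in males on the high fat diet than in any other group. Cideb held 98.2% ± 0.67 (SD, n = 4) and 98.7% ± 0.45 of summed Cide TPM in females on the normal and high fat diets and 97% ± 1.04 in males on the normal diet. In males on the high fat diet it held 88.7% ± 4.79, Cidec 9.57% ± 4.2 and Cidea 1.76% ± 1.06. The range of the Cidec share there was 4.83% to 13.9%, above the 2.09% to 4.44% of normal diet males.

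**Figure D3:**
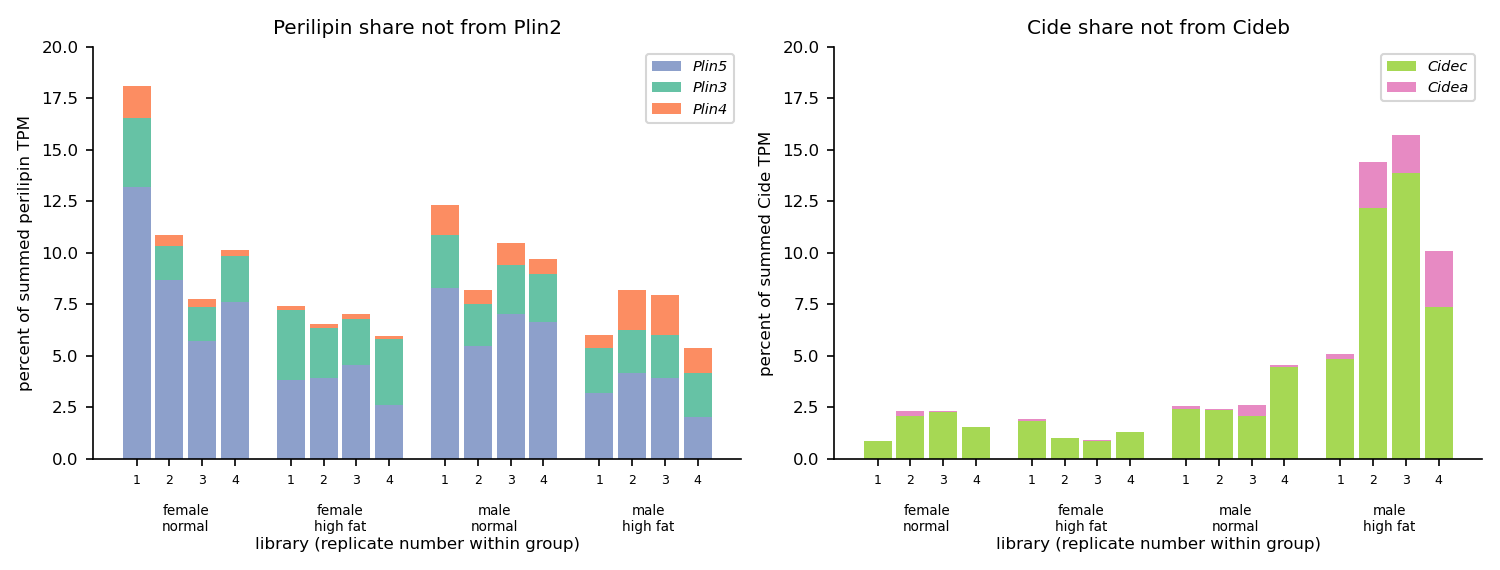
Stacked bars give, for each library, the percent of summed perilipin TPM not from Plin2 (left) and of summed Cide TPM not from Cideb (right). The Cidec part was largest in male high fat libraries 2 and 3 and the Cidea part in library 4, and the Plin5 part was 3.73% on average in high fat females against 8.81% in normal diet females.

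Adipocyte markers were looked at beside the rise of Cidea, Cidec and Plin4, since fat cells also carry these transcripts. Of 8 adipocyte genes 4 were tested and 2 rose in males on the high fat diet, where 6.03% of all genes rose. They were Cfd (log2 4.07 ± 1.04, edgeR adjusted p = 0.0236) and Lipe. The male diets overlapped for Cfd (0.0856 to 0.568 CPM on the normal diet and 0.372 to 10.2 CPM on the high fat diet). In females none was called, and Lipe had an unadjusted p of 0.0309. The summed level was 20.7 to 33.3 CPM in high fat males, 14.5 to 20.7 CPM in normal diet males, and 14.7 to 21.7 and 15 to 23.4 CPM in females. Adipoq, the adipokine that defines fat cells, had 65 counts over the normal diet males and 74 over the high fat males (log2 0.38 ± 0.48, edgeR adjusted p = 0.655). Plin1, the perilipin of fat cells, had 45 and 23 counts, Lep 1 and 11, Adig 5 and 4, and Retn 7 and 5. These counts are not scaled to library size. Lep was at 0 in all high fat females. The part of fat cells in the rises was not tested.

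The lipase Pnpla2 (ENSMUSG00000025509.16), which starts triglyceride breakdown, fell in both sexes. Female livers had 59.1, 68.2, 66.9 and 66.9 CPM on the normal diet and 51.2, 36.6, 38.0 and 49.0 CPM on the high fat diet. Male livers had 83.1, 89.0, 65.1 and 84.4 CPM on the normal diet and 49.4, 52.0, 50.7 and 40.9 CPM on the high fat diet. The diets did not overlap in either sex. The fall was 1.67-fold in males (log2 -0.74 ± 0.13, edgeR adjusted p = 0.00116) and 1.49-fold in females (log2 -0.58 ± 0.13, adjusted p = 0.00713), and the changes differed by 0.16 ± 0.18 (adjusted p = 0.756). The male fall passed in all 24 alternatives (adjusted p = 0.00362 with replicates 2 and 3 averaged), whereas the female one did not on TPM scales (log2 -0.33, adjusted p = 0.0846, with limma on log2(TPM + 1)). On that scale the median of all genes moved by 0.149 in females.

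G0s2 (ENSMUSG00000009633.4), a small protein that binds Pnpla2 and blocks it, rose in males. The males had 12.1, 5.45, 9.55 and 20.0 CPM on the normal diet and 30.2, 45.0, 47.1 and 32.7 CPM on the high fat diet. The females had 25.2, 55.9, 61.8 and 36.6 CPM on the normal diet and 55.8, 43.6, 60.8 and 33.4 CPM on the high fat diet. High fat males all exceeded normal diet males and lay within the range of the females, whose diets overlapped. The male rise was 3.29-fold (log2 1.72 ± 0.37, edgeR adjusted p = 0.00932, and 0.0261 with replicates 2 and 3 averaged). The female log2 fold change was 0.11 ± 0.35 (adjusted p = 0.875). The female change minus the male one, -1.61 ± 0.51, did not pass in edgeR (adjusted p = 0.195) and passed in DESeq2 (adjusted p = 0.0227).

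Per length, inhibitor transcript exceeded lipase transcript except in males on the normal diet. The ratio of G0s2 to Pnpla2 TPM was 0.594, 0.253, 0.595 and 0.987 in the normal diet males and 2.5, 3.54, 3.83 and 3.22 in the high fat males. The female ratios were 1.76, 3.38, 3.81 and 2.24 on the normal diet and 4.47, 4.84, 6.62 and 2.72 on the high fat diet. Every normal diet male was below 1 and all other libraries above it. These ratios are given without a test.

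**Figure D4:**
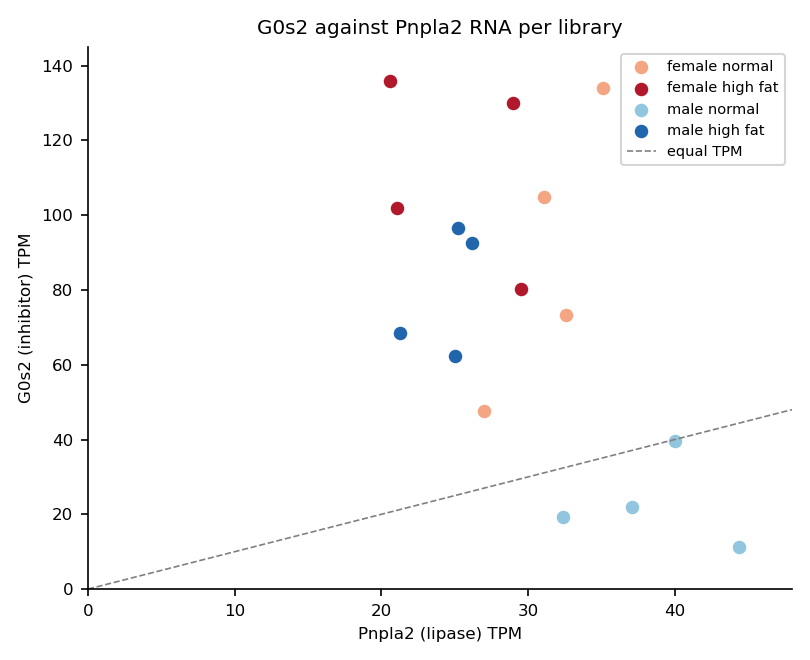
Each point is 1 liver library, with Pnpla2 TPM on the horizontal axis and G0s2 TPM on the vertical axis (both linear), and the dashed line marks equal TPM. The 4 normal diet males lie below the line (ratios 0.253 to 0.987) and the other 12 libraries above it (1.76 to 6.62).

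Hilpda (ENSMUSG00000043421.9), the second inhibitor and a gene known to respond to low oxygen and fatty acids, was scarce. It had 13 to 75 counts per library, or 0.549 to 2.30 CPM. Its log2 fold change was 0.10 ± 0.40 in females (edgeR adjusted p = 0.898) and 0.24 ± 0.40 in males (adjusted p = 0.748). At this depth no change of Hilpda was detectable in either sex, and its ratio to Pnpla2 was at most 0.159 in any library.

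The second question was whether the sexes differed in their response. Only Plin4 passed the test of the difference, 1 of 10 against 0.677% of all genes tested (0.413% with a lower and 0.264% with a higher change in females). An unadjusted p under 0.05 was found for 6 of the 10, against 13% of all genes, each with the female change below the male one (Plin2, Plin4, Plin5, Cidea, Cidec and G0s2). DESeq2 called 3 of them (Cidec, G0s2 and Plin4), against 2.31% of all genes. The median of the 10 differences was -0.717, where that of all genes was -0.006. With male high fat replicates 2 and 3 averaged, none of the 10 passed.

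The sexes were then compared on each diet. These comparisons use the same libraries as the diet comparisons and are not independent of them. On the normal diet 1 of 10 genes was called, against 15.7% of all genes (7.03% higher and 8.68% lower in females). G0s2 was 3.8-fold higher in females (log2 1.93 ± 0.37, edgeR adjusted p = 0.00373). Libraries of the sexes did not overlap for G0s2 and Plin5 (2 of 10, against 22% of all genes), with Plin5 higher in females by log2 0.38 ± 0.23 (adjusted p = 0.293). Fitted on only the 2 groups compared, Plin5 passed (0.38 ± 0.10, adjusted p = 0.0164). Pnpla2 was at log2 -0.30 ± 0.12, female minus male (adjusted p = 0.109).

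On the high fat diet 4 of the 10 genes were called, against 20.4% of all genes, and all 4 were lower in females (11.6% of all genes were lower and 8.84% higher). They were Plin4 (11.6-fold, log2 -3.54 ± 0.42, edgeR adjusted p = 7.1e-05), Cidec (7.39-fold, adjusted p = 0.000503), Cidea (350 counts in males and 5 in females, adjusted p = 0.000749) and Plin2 (1.51-fold, log2 -0.60 ± 0.20, adjusted p = 0.0469). The same 4 genes had no overlap between the sexes (22.7% of all genes had none). Plin4, Cidea and Cidec passed in all 24 alternatives, with adjusted p up to 0.0103. Plin2 passed in 5 of 24 and had an adjusted p of 0.0756 with male replicates 2 and 3 averaged. G0s2, which differed on the normal diet, was at log2 0.32 ± 0.35 here (adjusted p = 0.551).

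Other genes of the pathway were followed in 5 lists. The difference of diet changes is the female change minus the male one. Direct comparisons of the sexes are counted over all lists in the closing section. For the diet comparisons, 27.2% of all genes in females and 27.5% in males had an unadjusted p under 0.05, and DESeq2 called 15.7% and 15.2%. Of 18 known targets of fatty acid nuclear receptors, 6 rose and none fell in males on the high fat diet, against 11.4% of all genes called. At an unadjusted p under 0.05, 1 was lower, and DESeq2 called Fabp1 lower. The list's median log2 fold change was 0.309 (all genes 0.011). They included Cd36, which takes up fatty acids (66.7 ± 7.64 CPM on the normal diet and 211 ± 90.6 on the high fat diet, SD, n = 4; log2 1.66 ± 0.24, edgeR adjusted p = 0.000326), and Mogat1, an enzyme of triglyceride synthesis (log2 2.92 ± 0.52, adjusted p = 0.00163). The others, named after their values were seen, were Pdk4, Fgf21, Acot2 and Vnn1. In females 1 of the 18 was called: Angptl4, an inhibitor of lipoprotein lipase, fell from 136 ± 41.1 to 52.8 ± 19.2 CPM (log2 -1.37 ± 0.28, adjusted p = 0.00578). None of the 18 passed the test of the difference of diet changes in edgeR. There 7 had an unadjusted p under 0.05, all lower, and DESeq2 called 5.

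Of 11 tested lipolysis and lipophagy genes, 1 rose and 2 fell in females (11.5% of all genes were called) and 1 rose in males (11.4%). In females Lpl, the lipase that frees fatty acids from lipoproteins, rose from 12.2 ± 3.50 to 43.1 ± 14.1 CPM (log2 1.83 ± 0.36, edgeR adjusted p = 0.00625). Abhd6, a monoacylglycerol lipase, fell in females from 70.9 ± 10.1 to 30.8 ± 7.72 CPM (log2 -1.21 ± 0.20, adjusted p = 0.00139) and was at -0.60 ± 0.20 in males (adjusted p = 0.0621). Pnpla8, a phospholipase named after its values were seen, also fell in females. Lipe, the hormone-sensitive lipase that acts after Pnpla2, rose in males (log2 0.48 ± 0.15, adjusted p = 0.0482). DESeq2 also called Abhd6 and Ces1f, a carboxylesterase, lower in males. None of the 11 passed for the difference of diet changes in edgeR (2 at an unadjusted p under 0.05), and DESeq2 called 1, Lpl.

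Of 14 tested genes of droplet formation and coats, none rose in either sex in edgeR, 2 fell in females and 1 in males, against 11.5% and 11.4% of all genes called. Those in females were Fitm2, which helps droplets bud from the endoplasmic reticulum (log2 -0.73 ± 0.20, adjusted p = 0.0266), and Acsl3, which activates fatty acids on new droplets (-0.45 ± 0.14, adjusted p = 0.0454). The male one was Mettl7b, a droplet protein (-0.44 ± 0.10, adjusted p = 0.0101). Acsl3 also went from 36.7 ± 4.21 to 27.2 ± 4.72 CPM (SD, n = 4) in males, where edgeR did not call it and DESeq2 called it lower. At an unadjusted p under 0.05, 1 of the 14 was higher in males and none in females, and DESeq2 called no rise in either. For the difference of diet changes none passed in edgeR or DESeq2, and 1 had an unadjusted p under 0.05.

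Of 14 regulators, 1 was called in each sex, against 11.5% of all genes in females and 11.4% in males. Pparg, the fatty acid receptor of fat cells, rose in males (8.76 ± 1.45 and 16.7 ± 5.59 CPM; log2 0.93 ± 0.27, edgeR adjusted p = 0.0353), and Foxo1, a factor that insulin holds back, fell in females (log2 -1.01 ± 0.15, adjusted p = 0.000382). Ppargc1a was at -0.79 ± 0.26 in females (adjusted p = 0.0583) and Esrra at -0.39 ± 0.14 in males (adjusted p = 0.0777). DESeq2 called 3 lower in females (Foxo1, Hif1a and Ppargc1a) and Pparg alone in males. At an unadjusted p under 0.05, 1 was higher and 4 lower in females, and 1 was higher and 1 lower in males. None of the 14 passed for the difference of diet changes in edgeR or DESeq2 (3 at an unadjusted p under 0.05).

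Of 10 tested genes of the hypoxia response, to which Hilpda is often counted, 1 fell in each sex, against 11.5% of all genes called in females and 11.4% in males. P4ha1, a collagen prolyl hydroxylase, fell in males from 34.8 ± 7.39 to 9.05 ± 1.88 CPM (log2 -1.95 ± 0.17, edgeR adjusted p = 1.57e-06) and was at -0.47 ± 0.16 in females (adjusted p = 0.0683). The difference of its diet changes, female minus male, passed (1.48 ± 0.23, adjusted p = 0.00582). Bnip3, a mitophagy receptor, fell in females (log2 -0.81 ± 0.20, adjusted p = 0.0146), and Ndrg1 was at -0.38 ± 0.17 in males (adjusted p = 0.15).

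**Figure D5:**
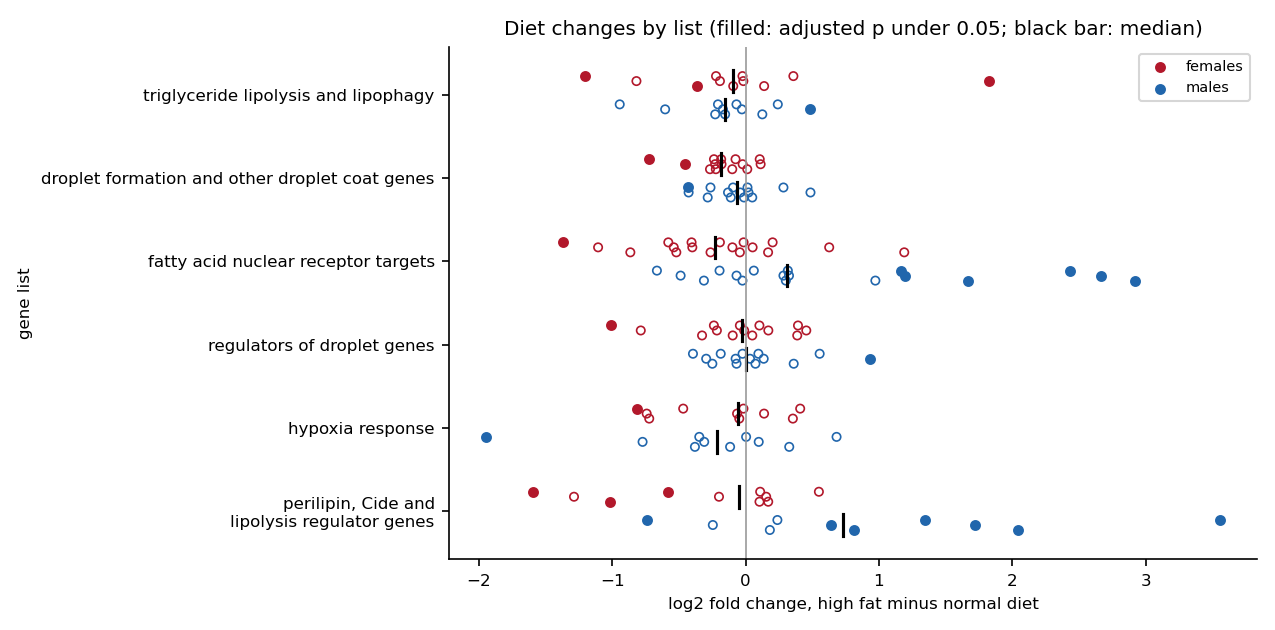
Each point is the edgeR log2 fold change of 1 gene, high fat minus normal diet, by list and sex, filled where the adjusted p was under 0.05, with a black bar at the median of the list. The male fatty acid receptor targets have 6 filled points, all above 0, and the droplet genes of males 6 above and 1 below.

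Marker sums of cell types also differed between some of these groups. The macrophage sum (9 genes) was 478 to 671 CPM in females on the high fat diet and 314 to 439 CPM on the normal diet, with no overlap. There 3 of its genes rose (Cd5l, Cd68 and Gpnmb, where 5.74% of all genes rose). In males it was 239 to 445 CPM and 269 to 396 CPM, which overlapped. There 3 rose (Cd68, Gpnmb and Trem2, where 6.03% of all genes rose) and 1 fell (Cd9, where 5.36% fell). The hepatocyte sum was 84200 to 101000 CPM in high fat females and 107000 to 121000 CPM in normal diet females. In males it was 65900 to 81200 CPM and 88300 to 101000 CPM. Alb by itself had 65700 to 77200 CPM and 86400 to 96200 CPM in females, and 37600 to 58600 CPM and 65400 to 72800 CPM in males. Of the 6 genes 1 was called in each sex, Cps1 lower in females and Alb lower in males (5.76% and 5.36% of all genes fell). The pancreatic acinar sum (1 of 6 genes tested) was 12.3 to 32.6 CPM in high fat males and 5.02 to 14.5 CPM in normal diet males. The gene tested, Cela1, had 12.2 to 16.4 CPM and 4.74 to 14.5 CPM and was not called. Of 362 Amy2a5 counts in the high fat males 360 were in a single library. For Pnlip a single library held 241 of 344, and both genes were at 0 in at least 1 high fat male. The part of these cell types in the changes of the droplet genes was not tested.

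The genes most like each of the 8 droplet genes called for diet or its difference were ranked by Pearson's r of log2 CPM over the 16 libraries, which fall into 4 groups and share their depth, so r is a description. Cidea was most like Cidec (r = 0.904), followed by Clstn3 (0.9) and Themis (0.881). Cidec was most like Osbpl3 (0.947), Gpc1 (0.907) and Clstn3 (0.885). For G0s2 the list was led by Vnn1 (0.943) and Acot2 (0.886), both among the receptor targets above, and then Wdr73 (0.884). Plin4 was most like mt-Nd6 (0.917) and mt-Cytb (0.914), transcripts of the mitochondrial genome, and Smurf1 (0.913). Pnpla2 was most like Gys2, the liver glycogen synthase (0.929), Stbd1, a glycogen-binding protein (0.922), and Nsun2 (0.912).

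For Plin5 the nearest genes were Ppp2r2d (0.892), Yipf4 (0.872) and Pllp (0.867), for Plin2 St5 (0.864), Lrfn3 (0.857) and Rhou (0.828), and for Plin3 Cntnap1 (0.883), Fbxo6 (0.865) and S100a11 (0.865). Among the droplet genes themselves, Plin4 followed Cidea (r = 0.81) and Cidec (0.771), Plin2 followed Plin3 (0.708) and Cidec (0.699), and G0s2 ran against Pnpla2 (-0.616).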

How the data were processed

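RNA of 16 mouse liver samples was measured. The deposited expected counts are RSEM gene estimates and need not be whole, and the authors also deposited TPM. The submitters' processing notes name STAR, RSEM and GRCm39, with no versions and no order of steps. Of the entries, 4.89% were not whole, and genes without a symbol held 0.617% to 1.65% of a library. Expected counts were rounded, genes kept by filterByExpr (14781), libraries scaled by TMM, and the quasi-likelihood test of edgeR 4.0.16 (R 4.3.3, robust) was fitted to all 16 libraries with 1 mean per group. P-values were two-sided, adjusted by Benjamini and Hochberg over all tested genes, and called under 0.05. SE was taken as the absolute log2 fold change over √F. Alternatives were DESeq2 1.42.0, its size factors, no filter on low counts, limma 3.58.1 on log2(TPM + 1) and log2(TPM + 0.1), only the groups compared, a replicate block, each library left out, and a near-identical pair averaged. The scripts were tested on simulated data.

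The droplet genes and the lists were chosen with earlier results of these data known. Besides the 10 genes, the rule named list genes called for the difference of diet changes or with the 2 smallest p in each diet comparison, and the 3 genes with the highest r to each called droplet gene at a mean log2 CPM of at least 1. For 2 list genes no match was found. A gene that the rule named is not reported here. Marker lists covered hepatocytes, adipocytes, macrophages, stellate, endothelial, bile duct, T and B, red blood and pancreatic acinar cells, and the stellate, endothelial, bile duct, T and B and red blood cell sums are in the closing section. Promoter windows and exon overlaps came from RefSeq on GRCm38.p6 and GENCODE M21, an older build than that of the counts, and no coordinate was carried between builds. The hour of collection is not given in the sources used here.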

Additional observations from a re-analysis of the deposited data

Results flagged for a closer look

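In 3 of 40 tests of 4 libraries, 1 library lay far from the others (Dixon's test at the 95% level, which chance flags in about 1 of 20 groups). Plin3 had 42.5 CPM in female high fat replicate 1, where the next library had 22.5 CPM. Cidea had 0.409 CPM in male high fat replicate 1, where the next lowest had 3.85 CPM. Pnpla2 had 59.1 CPM in female normal replicate 1, where the next lowest had 66.9 CPM. All 3 libraries carry the replicate number 1.

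The diet change of Plin4 differed between the sexes by -2.94 on the log2 scale, female minus male, in the test of the difference (edgeR adjusted p = 0.0251).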

How the results depend on the processing

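The 10 droplet genes in 5 contrasts gave 1188 alternative values, of which 1087 kept direction and side of the threshold, 53 no longer passed, 12 newly passed and 36 changed sign, and the cause was not tested. The interaction called 3 droplet genes with DESeq2, 0 without the filter and 0 with male high fat replicates 2 and 3 averaged, and sex on the normal diet called 2 with only the groups compared, where Plin5 joined G0s2. Leaving out 1 library at a time gave 2 to 4 droplet genes for diet in females, 4 to 7 in males, 0 to 2 for the interaction, 1 for sex on the normal diet and 3 to 5 on the high fat diet. In the order of the Results, the 5 lists held 18, 11, 14, 14 and 10 tested genes. They called 8 genes for diet in females (4 to 9 with 1 library left out), against 11.5% of all genes. In males they called 10 (6 to 11, and 6 without the filter), against 11.4%. For the interaction they called 1 (1 to 3, 7 with DESeq2 and 2 with the replicate block), against 0.677%. Between the sexes they called 14 in normal diet samples (9 to 17), against 15.7% of all genes. In high fat samples they called 15 (7 to 15, and 9 with the pair averaged), against 20.4%. By list, 5, 1, 1, 1 and 2 were higher in normal diet females than males, and 0, 1, 2, 0 and 1 lower. In high fat females 0, 1, 1, 0 and 2 were higher and 4, 1, 4, 2 and 0 lower.

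The values that changed sign were all uncalled. On TPM scales they were Cidec for diet in females (0.01), Plin3 (0.01) and Cideb (0.16) for the interaction, Hilpda for sex on the normal diet (0.01) and Pnpla2 for sex on the high fat diet (0.02). Cideb was 0.06 for the interaction with the pair averaged. With 1 library left out, diet in females gave Plin2 -0.01 to 0.31, Cidea -2.01 to 0.39, Cidec -0.54 to 0.01, G0s2 -0.07 to 0.31 and Hilpda -0.09 to 0.32, and diet in males gave Hilpda -0.15 to 0.68. The interaction gave Plin3 -0.41 to 0.02, Cideb -0.07 to 0.07 and Hilpda -0.56 to 0.27. Sex on the normal diet gave Plin2 -0.07 to 0.25, Plin3 -0.13 to 0.01 and Hilpda -0.39 to 0.27, and on the high fat diet Hilpda -0.53 to 0.10.

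Same-numbered samples correlated with r over 0.1 in 4 of 24 pairs (-0.159 to 0.18), all 4 between samples numbered 1. Whether the samples numbered 1 share something was not tested. The labels do not say that equal numbers pair animals, so the main fit had no replicate block. With the replicate block 3 droplet genes were called for diet in females, 7 in males, 1 for the interaction, 1 for sex on the normal diet and 3 on the high fat diet, where Plin2 did not pass. On the log2(TPM + 1) scale the median of all genes moved by 0.149 for diet in females, 0.107 for the interaction and 0.102 for sex on the high fat diet, and by 0.222, 0.145 and 0.152 with 0.1 added. There the change of Plin4 in females was -0.68 and its interaction -1.76, and that of Cidea in males 1.84. Few counts limit Cidea (at most 17 outside high fat males) and Hilpda (13 to 75).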

Other observations

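Marker sums of the remaining cell types were as follows. Stellate cell genes (6) summed to 319 to 329 CPM in females on the normal diet and 308 to 344 CPM on the high fat diet, where the diets overlapped but Col1a1 and Des were called higher on the high fat diet. In males they summed to 216 to 258 CPM and 270 to 388 CPM, with no overlap and no single gene called. Endothelial genes (5) lay between 111 and 172 CPM in every library and bile duct genes (5) between 46.9 and 90 CPM. T and B cell genes summed to at most 7.93 CPM. Red blood cell genes summed to 222 to 500 CPM in females and 339 to 556 CPM in males. Of these 5 genes Alas2 alone was called between the sexes, lower in females on both diets (8.68% and 11.6% of all genes were lower). On the normal diet Alas2 had 8.49 to 15.6 CPM in females and 91.1 to 107 CPM in males.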
